A study of Mus musculus with 2 samples.

Results

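The 80 genes described here encode the proteins of the cytosolic ribosome, the particle that translates messenger RNA. They were chosen by symbol alone from the 33696 genes of the count tables: Rpl or Rps followed by a number and at most 1 further letter, and Rplp0, Rplp1, Rplp2 and Rpsa, without pseudogenes. No measured value entered the choice. By their symbols 49 belong to the large (60S) subunit and 31 to the small (40S) subunit.

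Live lung cells of adult mice on the C57BL6/J background were profiled with 10x Genomics 3′ chemistry, in 1 library labelled GFI1 KO and 1 labelled GFI1 WT. The knockout removes GFI1, a transcriptional repressor of blood cell development, from the germline and so from every cell of the lung, and neither label names a treatment. The study's methods state more than 1 sample per genotype, but 1 library per label was analysed here. No difference below therefore carries a test, and an effect of the genotype cannot be told apart from one of the animal or its library. Intervals are 95% intervals that cover counting error only, and UMIs (unique molecular identifiers) are counted molecules.

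Ribosomal proteins assemble with ribosomal RNA into the large and the small subunit, and cells make them in nearly equal amounts. Their messenger RNAs begin with a terminal oligopyrimidine (TOP) tract, a run of C and T bases at the start site through which mTOR signalling adjusts their translation together. Resting lymphocytes spend a large share of their few transcripts on these genes, whereas mature neutrophils hold few ribosomes.

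The tract is visible in the genome at many of these genes, and the start sites of some of them, with and without a visible run, are printed below. RefSeq start sites were at hand for 60 of the 80 genes (72 starts, build GRCm38.p6). An unbroken run of at least 7 C or T bases on the transcribed strand, touching the stretch from 5 bases before to 10 bases after the start, lay at 31 of these 72 starts (43.1%) and at 16.3% of all 32851 starts in the same table. Each line gives 10 bases before and 20 bases from the start, 5′ to 3′ on the gene's strand, with the run in capitals. In Rpl7a and Rps27l the run begins upstream of the printed stretch.
Rps6 (chr4:86857348-86857377, minus strand): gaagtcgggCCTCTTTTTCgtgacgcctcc
Rps18 (chr17:33955646-33955675, minus strand): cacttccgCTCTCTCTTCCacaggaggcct
Rpl28 (chr7:4792955-4792984, plus strand): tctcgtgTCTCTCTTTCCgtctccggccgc
Rpl7a (chr2:26910797-26910826, plus strand): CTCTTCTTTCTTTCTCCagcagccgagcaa
Rpl35 (chr2:39005112-39005141, minus strand): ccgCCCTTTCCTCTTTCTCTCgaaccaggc
Rps27 (chr3:90213629-90213658, minus strand): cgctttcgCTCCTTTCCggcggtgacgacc
Rps27l (chr9:66946076-66946105, plus strand): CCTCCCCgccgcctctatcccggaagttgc
Rpl3l (chr17:24727816-24727845, plus strand): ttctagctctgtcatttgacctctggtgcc
Rps6, Rps18 and Rpl28 carry the run across the start itself. Rpl7a and Rpl35 stand near opposite ends of the change between the labels described below and both hold long runs. Rps27 and its paralog Rps27l differ, since the run of Rps27l lies before the start and not at it, and Rpl3l, a muscle paralog of Rpl3, holds no run of this length. Among genes measured in every cell type, the median log2 ratio of the level between the labels was 0.16 for the 30 with a run and 0.17 for the 27 without. These groups rest on annotated starts that were not checked in these cells. A gene without a run here may still carry the tract, so the groups do not separate genes with and without it.

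The library labelled GFI1 KO held 116825535 gene UMIs in 10700 called cells, and that labelled GFI1 WT held 162599284 in 19515. Cells were kept from 500 UMIs and 200 genes upward if mitochondrial UMIs were at most 20%, which left 10495 and 19342 cells, with medians of 11076 and 6217 UMIs, and the libraries shared 74 barcodes. Gfi1 itself had 340 UMIs, or 2.92 CPM (UMIs per 1000000 gene UMIs), in the former and 470, or 2.90 CPM, in the latter; the sources used here do not give the deleted part of the gene, so these 3′ tags do not check the labels. The libraries also differed in their cells: 8 and 1013 cells passed the neutrophil gate, and 1328 and 1 were classical monocytes with granule genes such as those of neutrophil precursors.

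Across all kept cells the ribosomal protein genes were a larger part of all UMIs in the library labelled GFI1 KO. Their share was 14.4% of gene UMIs (16769635 UMIs) in the library labelled GFI1 KO and 11.8% (19218417 UMIs) in that labelled GFI1 WT, a ratio of 1.21 (1.21 to 1.22). Both subunits showed it, with ratios of 1.22 for the large and 1.21 for the small subunit. The mix of cell types also differed between the libraries, so the share was next taken within types.

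Cells were assigned to types by the number of marker genes detected, and cells that passed the gates of 2 lineages were left out (3.74% and 6.97% of cells). Names below are names of these gates. The 9 types with at least 50 cells under each label held 59.9% and 65.2% of the kept cells, and in each of the 9 every marker gene of the type was detected under both labels. When the shares of the GFI1 KO label were weighted by the UMIs of each type under the GFI1 WT label, the 9 types together gave 13.2%, against 11.7% measured under the GFI1 WT label. With the mix of the GFI1 KO label, the shares of the GFI1 WT label gave 12.4%, against 13.5% measured. A difference between the labels thus remained within types after the mix was made equal.

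By summed UMIs, T and B cells held the highest shares of the 9 types and endothelial cells the lowest, under both labels. Under the GFI1 WT label the order was CD8 T cells (26.0%), CD4 T cells (22.8%), B cells (18.9%), γδ T cells (18.6%), granule-low classical monocytes (15.2%), NK cells (11.7%), nonclassical monocytes (11.5%), alveolar macrophages (8.54%) and endothelial cells (4.86%). B cells and γδ T cells were close neighbours in this order, as were NK cells and nonclassical monocytes, and with 1 library there is no spread between animals by which to separate them. Neutrophils under that label (1013 cells) stood at 2.80%, with a median of 69 ribosomal protein UMIs per cell. Granule-high classical monocytes under the GFI1 KO label (1328 cells) stood at 16.7%, close to the 15.8% of the granule-low monocytes of the same library. Under the GFI1 KO label NK cells, at 17.2%, stood above the granule-low monocytes, and the other types kept their places. There γδ T cells stood above NK cells only by the sums, at 17.6%. Their median cell, at 15.1%, lay below those of NK cells (15.3%) and granule-low monocytes (15.8%).

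**Figure D1:**
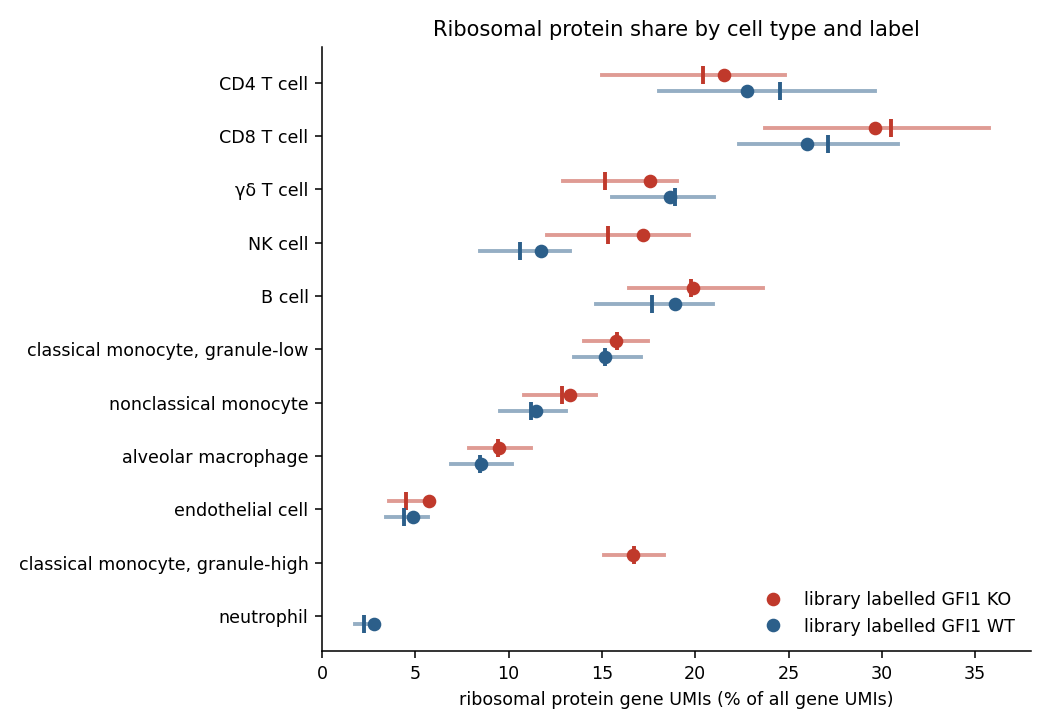
Ribosomal protein UMIs as a percentage of all gene UMIs (horizontal axis) in each gated cell type (rows) of the library labelled GFI1 KO (red) and GFI1 WT (blue). Points are shares of the summed UMIs, ticks are medians over cells and lines run from the 25th to the 75th percentile of cells; types with fewer than 50 cells in a library are not drawn for it. The widest gap is in NK cells (17.2% against 11.7%), and the points of CD4 and γδ T cells lie in the opposite order to the others.

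The share was higher under the GFI1 KO label in 7 of the 9 types. NK cells, lymphocytes that kill infected cells, had by far the largest ratio, with 17.2% of UMIs (223 cells) against 11.7% (1886 cells), or 1.47 (1.46 to 1.47). The median cell showed the same, at 15.3% against 10.6%. In NK cells neutrophil markers summed to 23.9 CPM under the GFI1 KO label and 166 under GFI1 WT, and secretory airway markers to 12.2 and 158. Classical monocyte markers summed to 480 and 725, nonclassical monocyte markers to 204 and 445, and the NK markers themselves to 3992 and 4902. Cycling genes went the other way, as given below. The part of these in the NK result was not tested. Endothelial cells had 5.73% (97 cells) against 4.86% (2129 cells), a ratio of 1.18 (1.16 to 1.19), but their median cells were nearly equal at 4.47% and 4.41%, so the summed difference did not show in the median cell. The ratio of the sums was 1.03 with the deepest 10% of cells of each type left out. Secretory airway markers, which endothelial cells lack, summed to 1632 CPM in them under the GFI1 WT label and 39.7 under the GFI1 KO label. Classical monocyte markers were higher under the GFI1 KO label, at 203 against 28.7 CPM, as were interstitial macrophage markers, at 152 against 42.3 CPM. The part of these markers in the result was not tested.

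Nonclassical monocytes, which patrol vessels, had 13.3% (481 cells) against 11.5% (366 cells), a ratio of 1.16 (1.15 to 1.16). In those of 3000 to 8000 UMIs the ratio was 1.03. Neutrophil markers summed to 682 CPM in this gate under the GFI1 KO label and 1312 under GFI1 WT. Alveolar macrophage markers summed to 1129 and 674 and classical monocyte markers to 410 and 234, and the part of these was not tested. CD8 T cells had 29.7% (360 cells) against 26.0% (1012 cells), a ratio of 1.14 (1.14 to 1.14). In them secretory airway markers summed to 14.7 CPM under the GFI1 KO label and 2449 under GFI1 WT, classical monocyte markers to 739 and 302, and cycling genes to 253 and 129, and the part of these was not tested. Alveolar macrophages, the largest type, had 9.50% (2310 cells) against 8.54% (3807 cells), a ratio of 1.11 (1.11 to 1.11). B cells had 19.9% (813 cells) against 18.9% (2688 cells), a ratio of 1.05 (1.05 to 1.05). In B cells secretory airway markers summed to 29.1 CPM under the GFI1 KO label and 291 under GFI1 WT, and cycling genes to 22.6 and 113. Naive T cell markers went the other way, at 2537 and 1953, and the part of these was not tested. Granule-low classical monocytes had 15.8% (1840 cells) against 15.2% (181 cells), a ratio of 1.04 (1.03 to 1.04); their summed neutrophil markers were 2020 against 519 CPM and their alveolar macrophage markers 3448 against 1234 CPM, whose part was not tested.

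CD4 and γδ T cells went the other way. CD4 T cells had 21.6% (94 cells) against 22.8% (483 cells), a ratio of 0.947 (0.941 to 0.952). γδ T cells had 17.6% (68 cells) against 18.6% (59 cells), a ratio of 0.944 (0.935 to 0.953), and their median cells were further apart at 15.1% and 18.9%. In both, the make-up of the gate also differed between the labels. Cells with at least 4 of 6 naive T cell markers were 56.4% (53 of 94 cells, exact interval 45.8 to 66.6%) of the CD4 T cells under the GFI1 KO label and 85.5% (413 of 483, 82.0 to 88.5%) under the GFI1 WT label. Within these naive-type CD4 T cells the summed share was 24.5% against 23.7%, and within those with at most 2 naive markers it was 16% (26 cells) against 13.7% (23 cells), both higher under the GFI1 KO label. The median cell of the naive-type group was, however, lower, at 23.6% against 25.7%. In CD8 T cells both groups were higher under the GFI1 KO label, at 30.9% against 26.8% for the naive-type cells and 18.7% against 14.5% for those with few naive markers. Under both labels T cells with few naive markers thus held much lower shares than naive-type cells. Cycling genes in CD4 T cells summed to 243 CPM under the GFI1 KO label and 548 under GFI1 WT. In CD4 T cells without any UMI of a cycling gene (74 and 417 cells) the ratio of the shares was 0.929. In γδ T cells the naive markers summed to 2286 CPM under the GFI1 KO label, against 4403 CPM for GFI1 WT, and the cycling genes to 285 and 9.77. In γδ T cells without any UMI of a cycling gene the share was 18% (48 cells) against 18.2% (55 cells), a ratio of 0.993 (0.982 to 1.00), whose interval includes equal shares, but their median cells stood at 15.2% against 18.5%, a ratio of 0.819, close to the 0.801 of all γδ T cells. The part of the naive markers in the result was not tested.

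Cycling genes moved with the share in NK cells. They summed to 752 CPM under the GFI1 KO label, against 140 CPM for GFI1 WT, and cells with at least 3 cycling genes were 17 of 223 (7.62%, 4.50 to 11.9%) and 22 of 1886 (1.17%, 0.732 to 1.76%). NK cells without any UMI of a cycling gene had a share of 15.5% (167 cells) against 11.5% (1706 cells), a ratio of 1.35 (1.34 to 1.36). The cycling NK cells had 18.7% against 13%. The difference was therefore present in both kinds of NK cell. In alveolar macrophages, cycling cells were 3.68% and 3.36%, and the share in cells without a cycling gene was 9.44% against 8.51%.

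Depth differed between the libraries by type, so per-cell shares were also set side by side in windows of UMIs per cell, wherever both labels had at least 20 cells. The median share was higher under the GFI1 KO label in 3 of 3 windows in NK cells, 3 of 3 in alveolar macrophages and 2 of 2 in granule-low monocytes. In granule-low monocytes of 4000 to 8000 UMIs, however, the medians were nearly equal, at 16.15% against 16.14%. The median share was higher in 2 of 3 windows in CD8 T cells, B cells and nonclassical monocytes, in 1 of 2 in endothelial cells and in none of 2 in CD4 T cells and of 1 in γδ T cells. In NK cells the ratios across windows ran from 1.30 to 1.45. Mitochondrially encoded genes, often read as a sign of RNA quality, had ratios between the labels of 0.978 in alveolar macrophages to 1.41 in nonclassical monocytes, above 1 in 7 of 9 types, and 1.23 in NK cells. Their part was not tested.

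With at least 50 UMIs over both libraries in a type, 77 genes were measured in each of the 9 types, and Rpl3l, Rpl39l and Rpl10l were not. Of the 77, 9 had a higher level (in CPM) under the GFI1 KO label in every type, among them Rplp0, Rpl7a, Rpsa and Rpl29. The matching share over all genes is not given here, so this count cannot be read as many or few. A level was higher for 75 of 77 in NK cells (40.5% of all genes tested), 78 of 79 in alveolar macrophages (46.0%), 74 of 77 in endothelial cells (50.7%), 73 of 78 in nonclassical monocytes (45.8%) and 66 of 77 in CD8 T cells (41.3%). The endothelial count rests on the summed UMIs, whose share ratio was only 1.03 without the deepest 10% of cells. In B cells it was higher for 55 of 77 (46.6% of all genes). In granule-low monocytes it was higher for 43 of 78, or 55.1%, near the 50.9% of all genes. In γδ T cells it was higher for 29 of 77 (50.2% of all genes) and in CD4 T cells for 23 of 77 (49.9%).

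Changes past 1.5-fold were almost limited to NK cells. There 36 of 77 genes were higher and none lower, where 12.7% of all 9760 genes tested were higher and 22.0% lower by as much. Their median log2 ratio was 0.56, against -0.15 for all genes tested. Rplp0, a stalk protein, had 2777 CPM against 1289, a ratio of 2.15 (2.08 to 2.23). Rps2, a protein of the small subunit, had 2550 against 1195, a ratio of 2.13 (2.06 to 2.21). Rpl7a, of the large subunit, had 1072 against 535, a ratio of 2.0 (1.90 to 2.12). These were the 3 past 2-fold, and Rpl29 followed at 1.99. In NK cells without a cycling gene, 16 of 77 genes were higher by 1.5-fold and none lower, where 8.46% of all genes were higher and 19.8% lower; Rplp0, Rpl7a, Rpl29 and Rps2 were among them.

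In the other types the counts lay below those of all genes. No ribosomal protein gene was past 1.5-fold in CD4 T cells (background 11.6% higher, 13.3% lower), CD8 T cells (6.34% higher, 13.4% lower) or B cells (4.59% higher, 7.62% lower). In γδ T cells 1 was lower, Rpl35 (22.7% of all genes lower, 22.4% higher). In granule-low monocytes Rpl35 was lower (10.9% of all genes) and Rpl3l higher (13.1%). Rpl3l had 113 UMIs under the GFI1 KO label (1840 cells) and 2 under GFI1 WT (181 cells), a ratio of 4.33 (1.17 to 36.2). It thus reached the minimum count through the GFI1 KO label only. Alveolar macrophages and nonclassical monocytes also hold Rpl3l. In this gate the markers of the former summed to 3448 CPM under GFI1 KO and 1234 under GFI1 WT. Those of the latter summed to 117 and 158, and the part of these was not tested. In nonclassical monocytes (6.96% of all genes higher, 8.92% lower) and endothelial cells (13.4% higher, 15.3% lower) Rplp0 was the 1 gene past the fold, and in alveolar macrophages (1.33% higher, 7.34% lower) it was Rpl39l, on 221 UMIs against 249 from more cells.

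To see which genes moved against the rest of the ribosome, each was taken as a share of all ribosomal protein UMIs of its type, a measure that the summed change does not enter. By the median of this log2 ratio over the 9 types, 46 of the 77 genes lay within 0.1 of 0. Rplp0 stood highest at 0.41 and above 0 in 9 of 9 types, from 0.01 in alveolar macrophages to 0.66 in γδ T cells. Its protein anchors the stalk of the large subunit, where elongation factors bind. It took 2.33% of the ribosomal protein UMIs in granule-low monocytes under the GFI1 KO label, against 1.69% for GFI1 WT, and 1.95% against 1.24% in γδ T cells. The acidic proteins of the same stalk did not go with it: Rplp1 had a median of -0.08 (above 0 in 1 of 9 types) and Rplp2 of -0.14 (0 of 9).

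Rpl7a followed at a median of 0.26 (8 of 9 types above 0), then Rpsa at 0.19 (8 of 9), Rps2 at 0.19 (6 of 9) and Rpl32 at 0.18 (9 of 9). Rpsa is the small-subunit protein that is also known as the laminin receptor. In γδ T cells, where the sum was lower, Rpsa had 3792 CPM against 3102, a ratio of 1.22 (1.14 to 1.31), and Rplp0 had 3433 against 2303, a ratio of 1.49 (1.38 to 1.62). These genes were thus higher under the GFI1 KO label in a type whose ribosomal protein share was lower.

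At the other end, Rpl35, a protein near the exit of the nascent chain, had a median of -0.40 and was below 0 in 9 of 9 types. Its level was 355 CPM against 560 in granule-low monocytes, a ratio of 0.634 (0.592 to 0.679), and 356 against 552 in γδ T cells, a ratio of 0.645 (0.527 to 0.787). In NK cells it was 338 against 300, a ratio of 1.13 (1.03 to 1.24), well below the ratio of the sum. Rps29 had a median of -0.32 (above 0 in 1 of 9 types), Rpl37a of -0.19 (0 of 9), Rps28 of -0.18 (1 of 9) and Rps15 of -0.18 (0 of 9). In NK cells Rps29 had 2114 CPM against 2147, a ratio of 0.984 (0.949 to 1.02), in the type where most of these genes were higher. In all, 6 genes were above 0 in every type and 11 were below. The 9 types share their libraries and no matching share over other genes is given, so these counts cannot be read as many or few.

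**Figure D2:**
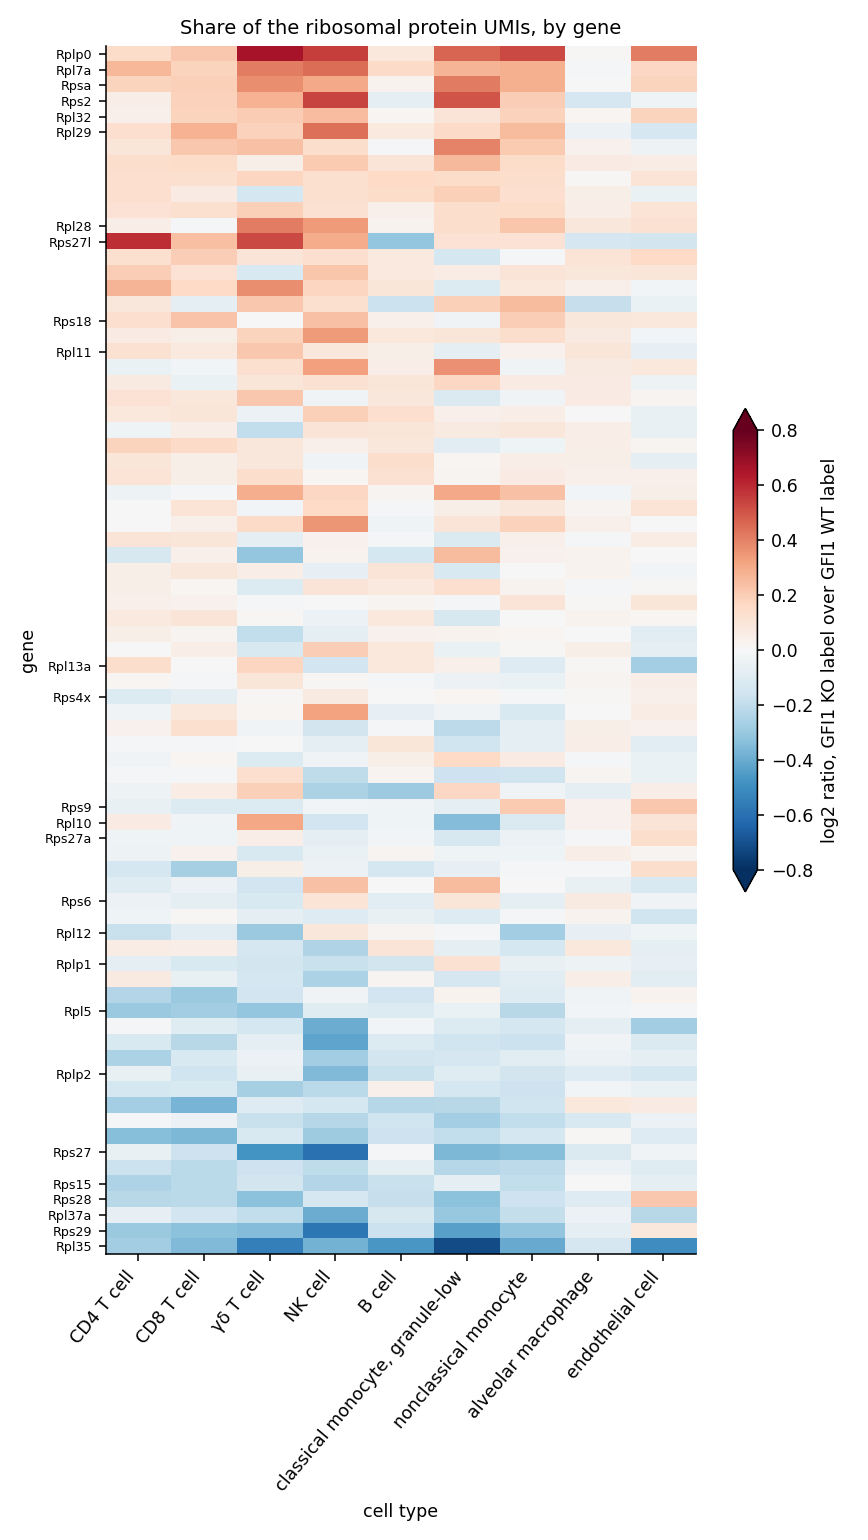
Log2 ratio, GFI1 KO label over GFI1 WT label, of each gene's share of the ribosomal protein UMIs (colour) for the 77 genes measured in every type (rows, ordered by their median, with genes described in the text labelled) and the 9 cell types (columns). Rplp0 and Rpl7a at the top and Rps29 and Rpl35 at the bottom keep their colour across most columns, and alveolar macrophages are the palest column.

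This composition of the ribosomal protein messages differed least between the labels in alveolar macrophages, where the standard deviation of the log2 ratios over genes was 0.06, and most in NK cells (0.24), γδ T cells (0.22) and granule-low monocytes (0.21). The ratio of the large subunit was above that of the small subunit in 8 of 9 types, including CD4 and γδ T cells, where both were below 1, and alveolar macrophages, where both were 1.11. In NK cells its ratio was 1.49 against 1.43 for the small subunit, and in CD8 T cells 1.16 against 1.12. In endothelial cells the order was reversed, at 1.17 against 1.19.

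The genes that gained and lost also differed in length. Over the 77 genes, the Spearman correlation between the coding length and the median log2 ratio of the share of ribosomal protein UMIs was 0.51, given as a description across genes that share their libraries. The 27 genes with the shortest coding sequences (138 to 405 bases) had a median of -0.08, with 8 above 0, and the 26 with the longest (582 to 1257 bases) a median of 0.05, with 21 above 0. Rps29 has 168 coding bases, Rps28 has 207 and Rpl37a has 276, whereas Rplp0 has 951, Rps2 has 906 and Rpsa has 885. Rpl5, at -0.11, was long and below 0 in every type.

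**Figure D3:**
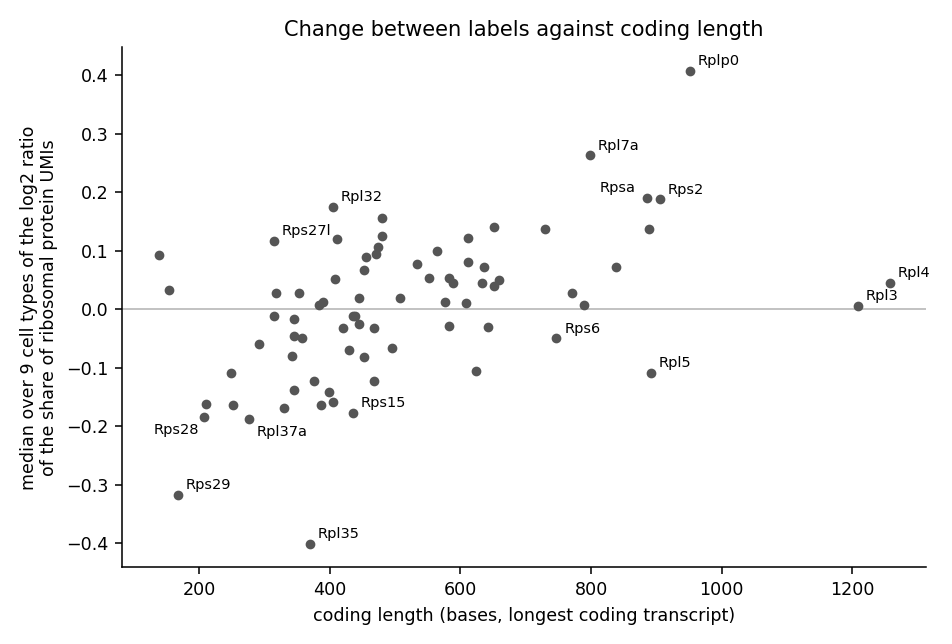
Median over the 9 cell types of the log2 ratio, GFI1 KO label over GFI1 WT label, of each gene's share of the ribosomal protein UMIs (vertical axis) against its coding length in bases (horizontal axis), 1 point per gene, 77 genes. Short genes such as Rps29 lie low and Rplp0, Rpl7a, Rpsa and Rps2 lie high, while Rpl35 and Rpl5 lie below other genes of their length.

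Over other genes of any coding length the same relation had the opposite sign. Within a type, the correlation of the log2 ratio of the level with coding length ran from 0.26 to 0.57 over ribosomal protein genes. Over all other genes tested it ran from -0.36 to -0.14, negative in 9 of 9 types. Among other genes with under 1000 coding bases it was weaker in every type, from -0.20 in γδ T cells to 0.005 in endothelial cells. At these lengths it was -0.18 in CD8 T cells, -0.07 in CD4 T cells, -0.05 in granule-low monocytes and -0.03 in B cells. The opposite sign was thus not found in every type among short genes. Other genes with under 1000 coding bases had a median log2 ratio above 0 in 9 of 9 types, so short messages as a group were higher under the GFI1 KO label. Ribosomal protein genes had the higher median of the 2 groups in 6 types, for example 0.56 against 0.16 in NK cells, 0.16 against 0.02 in alveolar macrophages and 0.20 against 0.12 in CD8 T cells. B cells, the closest of the 6, had 0.09 against 0.09 after rounding. In CD4 T cells (-0.07 against 0.19), γδ T cells (-0.10 against 0.39) and granule-low monocytes (0.03 against 0.15) they had the lower one. The part of message length in the summed shares was not tested.

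Rpl5 and Rpl11 form a particle with 5S ribosomal RNA, which joins the large subunit and, when free, binds the p53 regulator MDM2. Rpl5 is also a close neighbour of the targeted gene, with 2 protein-coding genes (Evi5 and Ube2d2b) between it and Gfi1 on chromosome 5 in the RefSeq annotation. Relative to the other ribosomal protein genes Rpl5 was lower in 9 of 9 types, by a log2 ratio of -0.31 in γδ T cells to -0.02 in endothelial cells. It was among the 11 genes below 0 in every type, and its median of -0.11 was the smallest in size of theirs. The ratio of its level ran from 0.763 to 1.37 over the types and was above 1 in 3 of 9. In CD4 T cells the level was 1671 CPM against 2173, a ratio of 0.769 (0.720 to 0.821). In CD8 T cells it was 2176 against 2312, a ratio of 0.941 (0.914 to 0.969). Rpl11, on the other hand, had a median of 0.08 and was above 0 in 7 of 9 types, so the partners did not move together. Other genes with known single roles lay near the middle, with medians of -0.05 for Rps6 (the S6 kinase substrate), 0.01 for Rpl13a and -0.03 for Rps27a, which is made as a fusion with ubiquitin.

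Cell types also differed in this composition, most of all for a few genes. By UMIs, which count 3′ ends and are not divided by length, Rplp1 was the most abundant gene (2.64% of the ribosomal protein UMIs), Rps24, Rpl13, Rpl23 and Rps16 were among those that followed, and the 10 most abundant held 21.6%. Across the 18 combinations of type and label, the level of 71 of the 77 genes had a correlation above 0.9 with the summed share of the other genes, with a median of 0.98. Over all genes (16328) the median correlation with the summed share was -0.10. Among genes outside the symbol rule, Eef2 ranked 23rd at 0.902 and the gene ranked 24th stood at 0.899. The standard deviation over types of a gene's log2 share of the ribosomal protein UMIs, averaged over the labels, had a median of 0.17. Rps27l was far above this at 1.09, followed by Rpl12 (0.59), Rplp1 (0.38), Rps9 (0.35), Rpl10 (0.35) and Rps28 (0.31), and the lowest was Rps4x at 0.07.

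Rpl12, of the stalk base, took 1.98% of the ribosomal protein UMIs in CD4 T cells and 0.693% in nonclassical monocytes under the GFI1 WT label, and 1.75% and 0.572% under the GFI1 KO label. Rplp1 took 3.94% in alveolar macrophages and 1.58% in granule-low monocytes under the GFI1 WT label, and 3.83% and 1.72% under the GFI1 KO label. Rps9 was highest in granule-low monocytes, at 2.64% and 2.50%, and near 1.3% in NK cells, at 1.31% and 1.29%. The order of these types was the same under both labels for each of these pairs.

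Several ribosomal proteins have a second gene, and these paralogs divided the cell types more sharply. Rps27l, a paralog of Rps27 known as a p53 target, made up 28.0% of the UMIs of the pair in alveolar macrophages under the GFI1 WT label and 27.7% under the GFI1 KO label. In B cells it made up 3.64% and 2.98%, and in CD8 T cells 2.61% and 3.42%. Endothelial cells were also high, at 23.0% and 21.5%, and neutrophils under the GFI1 WT label were at 5.60%. Between the labels it was higher under GFI1 KO in NK cells, at 14.4% (13.2 to 15.6%) against 8.28% (7.88 to 8.69%), and in γδ T cells, at 9.80% (8.05 to 11.8%) against 5.11% (3.91 to 6.55%). It was also higher in CD4 T cells (5.72% against 3.73%), granule-low monocytes (17.8% against 13.5%), nonclassical monocytes (12.2% against 9.16%) and CD8 T cells. In B cells it was lower. In alveolar macrophages (27.3 to 28.2% against 27.7 to 28.4%) and endothelial cells (17.6 to 26.0% against 22.2 to 23.9%) the intervals of the labels overlapped. In NK cells this came with 295 CPM of Rps27l against 164 and a Rps27 share of the ribosomal protein UMIs that was lower, by a log2 ratio of -0.60. The level of Rps27l had a correlation of -0.44 with the summed share of the other genes, unlike nearly all of them.

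Rpl3l, known from heart and skeletal muscle, had 2363 UMIs in all. It was at 0 or nearly so in lymphocytes, with 0 of 2725 UMIs of the pair with Rpl3 in NK cells under the GFI1 KO label (which allows up to 0.135% by the exact interval) and 1 of 8370 under the GFI1 WT label. In nonclassical monocytes it held 4.32% (154 of 3565 UMIs) and 3.79% (82 of 2165), and in alveolar macrophages 2.29% (515 of 22494) and 2.26% (805 of 35595). In neutrophils under the GFI1 WT label it held 12.7% (44 of 346, 9.39 to 16.7%). By level Rpl3l was at 12.5 CPM in these neutrophils, against 29.1 in nonclassical monocytes and 14.3 in alveolar macrophages under that label. Rpl3 was at 85.5 CPM in these neutrophils and 740 in the nonclassical monocytes, so the high fraction is not a high level. Rpl39l, known from male germ cells, was found mainly in alveolar macrophages, with 221 of its 297 UMIs under the GFI1 KO label, against 249 of 344 for GFI1 WT. Rpl10l, also of male germ cells, had 0 UMIs in both libraries, which allows up to 0.0257 and 0.0185 CPM.

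Rpl36al, Rpl22l1 and Rpl7l1 fall outside the symbol rule and are paralogs of genes inside it. Rpl36al held 63.5% of its pair with Rpl36a in granule-low monocytes and 31.0% in CD8 T cells under the GFI1 WT label, and 58.4% and 32.0% under the GFI1 KO label. In γδ T cells it held 34.8% (31.2 to 38.6%) under the GFI1 WT label and 49.4% (45.9 to 52.9%) under the GFI1 KO label. Rpl22l1 held between 14.8% and 29.7% of its pair with Rpl22 in the 9 types and was the lower under the GFI1 KO label in each of the 9. Rpl7l1 was highest in endothelial cells, at 8.38% and 12.8%. Reads that match near-identical gene copies equally are not counted by the tool used, so these fractions may be uncertain for genes with many pseudogenes.

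**Figure D4:**
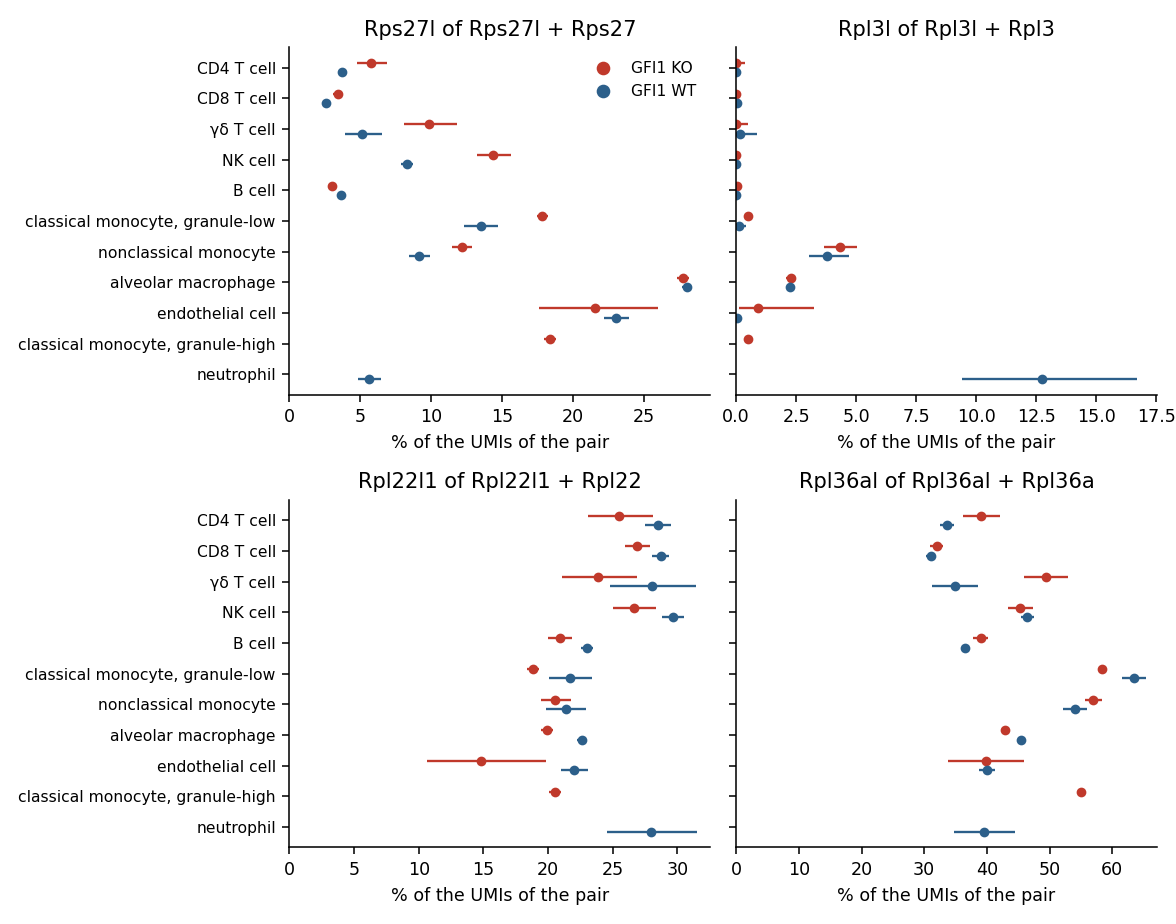
Percentage of the UMIs of a pair that came from the paralog (horizontal axis, exact 95% interval) for Rps27l, Rpl3l, Rpl22l1 and Rpl36al in each cell type (rows) under the GFI1 KO (red) and GFI1 WT (blue) labels; types with fewer than 50 cells in a library are not drawn for it. The fraction of Rps27l is highest in alveolar macrophages (27.7% and 28.0%) and that of Rpl3l in neutrophils under the GFI1 WT label (12.7%), where its level is not the highest.

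Other genes of translation were set beside the ribosomal protein genes as lists. Ribosomal proteins outside the symbol rule and the elongation factors followed the share across types and labels most closely, with median Pearson correlations of the level with the summed share, over the 18 points that share 2 libraries, of 0.90 (6 genes) and 0.87 (8 genes), and other TOP messages had 0.82 (16 genes). Ribosome biogenesis genes, which build the particle in the nucleolus, had 0.36 (26 genes), initiation factors -0.06 (17 genes), mitochondrial ribosomal proteins -0.01 (78 genes) and all genes -0.10. The non-member genes most alike in level were Rps3a1 (0.99), Eef1b2 (0.98), Rack1 (0.98), Eif3e (0.97), Gm6133 (0.96), Tpt1 (0.96), Rpl22l1 (0.96), Gm2000 (0.95), Snrpg (0.95) and Rps27rt (0.95). Rps3a1 and Rack1 encode further components of the small subunit, and Eef1b2 a subunit of elongation factor 1.

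In NK cells, where 12.7% of all genes were past 1.5-fold higher and 22.0% lower, elongation factors, other TOP messages and biogenesis genes had larger shares of higher genes than that. Of 7 elongation factor genes tested, 4 were past 1.5-fold higher and none lower, with Eef1a1 at 4114 CPM against 2515, a ratio of 1.64 (1.59 to 1.68). Of 16 other TOP messages, 10 were higher and none lower, with Npm1, a nucleolar chaperone, at 722 against 386, a ratio of 1.87 (1.75 to 2.0). Of 26 biogenesis genes, 9 were higher and 1 lower. Of 17 initiation genes, 3 were higher and none lower, a share of higher genes near that of all genes. The list of signals that set ribosome production had 2 of 16 tested genes past the fold higher and 2 lower, 3 of 16 ratios above 1, and a median log2 ratio of -0.32 against -0.15 for all genes. Myc, a transcription factor that drives ribosome production, was 1 of the few higher ones, on few counts, with 55 UMIs against 143 from a larger pool, a ratio of 2.17 (1.56 to 2.98).

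Genes of the mitochondrial ribosome, a separate particle, were higher in more types than the cytosolic ones. Their median log2 ratio was above 0 in 9 of 9 types and above that of the cytosolic genes in 7. It was 0.52 in NK cells (34 of 77 past 1.5-fold higher, none lower) and 0.67 in γδ T cells (13 of 24 higher, none lower, where 22.4% of all genes were higher), where the cytosolic genes had a median of -0.10. Only 24 of the 78 list genes reached 50 UMIs in γδ T cells, and the summed UMIs of the whole list had a ratio of 1.42 (1.32 to 1.52). The median of all genes tested lay between -0.15 and 0.01. The other TOP messages also had a median above 0 in all 9 types, and biogenesis genes in 6. Vim, the cytoskeletal protein among the TOP messages, was past 1.5-fold higher in 5 types and Eif4ebp1, an inhibitor of initiation, in 4, more than any other gene of their lists. Rps6ka3, a kinase of the S6 kinase group, was past 1.5-fold in 5 types, higher in 1 of them and lower in the rest.

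**Figure D5:**
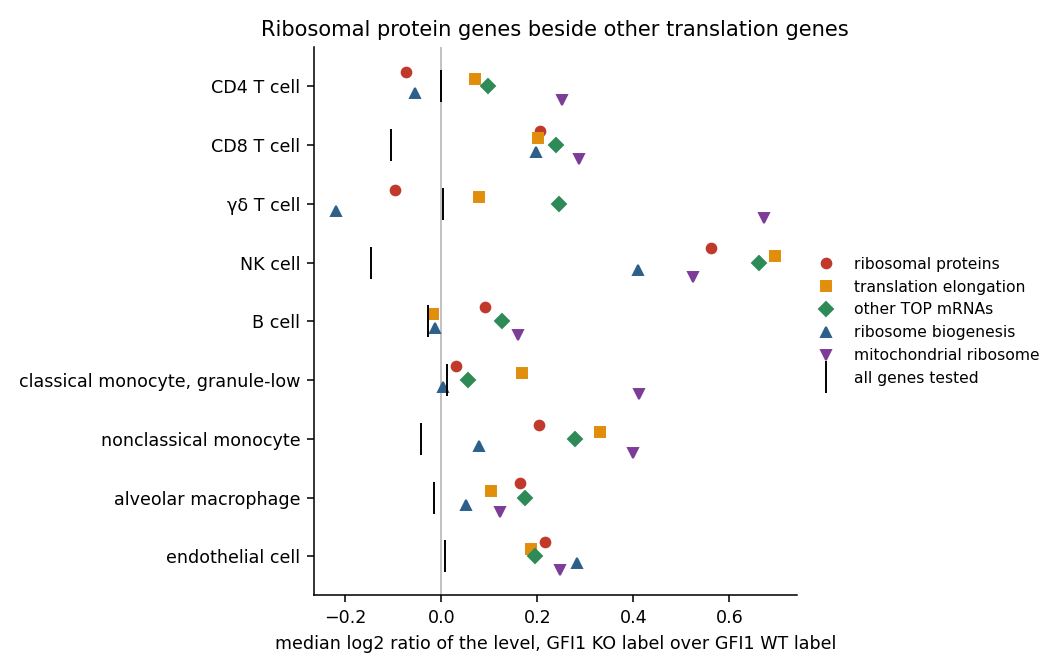
Median log2 ratio of the level, GFI1 KO label over GFI1 WT label (horizontal axis), over the genes of 5 lists and over all genes tested (black bars) in each of the 9 cell types (rows). Ribosomal protein genes (red) stand right of all genes in 7 types and left of them in CD4 and γδ T cells, and the lists stand furthest right in NK cells, apart from the mitochondrial ribosome, which does so in γδ T cells.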

How the data were processed

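The authors deposited raw counts, UMIs per gene and cell, for cells called in each library; the submitters' processing notes name Cell Ranger 9.0.1 and the builds GRCm39 and mm39. The 18 antibody tag rows were not used. The study's methods state that ribosomal genes were excluded, whereas they are the subject here. Its supplementary list for Trgv1-positive splenic γδ T cells nevertheless holds Rplp0, Rpsa, Rplp1 and Rplp2, as higher in GFI1 KO. The genes, lists and tests were chosen with earlier results of these data known, and the gate thresholds were set after marker detection was seen.

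Cells with at least 500 UMIs, 200 genes and at most 20% mitochondrial UMIs were kept. A marker counted as detected from 2 UMIs, a cell took the type of which it passed the minimum number of markers, and cells passing 2 lineages were left out; no doublet caller was run. UMIs were summed by type and label. Levels are UMIs per 1000000 gene UMIs (CPM) with exact Poisson intervals, shares have Clopper-Pearson intervals and ratios exact conditional binomial intervals, all at 95% and for counting error only. Genes needed 50 UMIs over both libraries in a type, 0.5 UMIs were added for log2 ratios, and a gene counted as changed past 1.5-fold. With 1 library per label no test was made.

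Named genes were the 6 most abundant, the 5 highest and 5 lowest by change of share among ribosomal protein UMIs, the 6 most variable over types, paralogs, genes chosen by role (5S particle, stalk, Rpsa, Rps6, Rpl13a, Rps27a), the list genes past the fold in most types, and the 10 other genes most alike in level. Some genes that this rule selects are not reported here. Single NK examples by fold (Rpl29, Eef1a1, Npm1, Myc) were chosen after their values were seen. Coding lengths came from GENCODE M21 by Ensembl identifier and start sites from RefSeq on GRCm38.p6, whose coordinates were not converted. Python 3.11.15, numpy 2.4.6, scipy 1.17.1, pandas 2.3.3 and matplotlib 3.10.9 were used, and the fold and interval code was tested on simulated data. Alternatives changed the cell filter, denominator, gate, depth range, fold and minimum count.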

Additional observations from a re-analysis of the deposited data

Results flagged for a closer look

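CD4 T cells and γδ T cells stood out because their ribosomal protein share was lower under the GFI1 KO label while 7 of 9 types were higher. The ratio was 0.947 in CD4 T cells and 0.944 in γδ T cells. The difference between these types and the others was not tested, since each label has 1 library. In naive-type CD4 T cells the ratio of the summed shares was 1.03 and in those with few naive markers 1.17. Without cells holding a cycling gene it was 0.993 in γδ T cells and 0.929 in CD4 T cells. The ratios of the median cells were 0.918 in naive-type CD4 T cells, 1.2 in those with few naive markers and 0.819 in γδ T cells without a cycling gene.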

How the results depend on the processing

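With 1 library per label, intervals cover counting error and not differences between mice. No paired analysis was possible because each label has only 1 library, and leaving out a replicate was not possible for the same reason. The number of types with a higher share under the GFI1 KO label stayed at 7 of 9 under all 10 alternatives, and no type changed direction. Leaving out the cell filter changed few cells of these types, so it could hardly move the ratios. Counting per UMI of other genes is nearly the same measure by construction. Leaving out mitochondrial genes or the 5 most abundant genes kept most of the UMIs. These settings could therefore hardly change a direction. The depth windows above are not among the 10. In some of them the median share was lower under the GFI1 KO label in CD8 T cells, B cells, nonclassical monocytes and endothelial cells. Across the 10 alternatives the ratio ran from 1.35 to 1.58 in NK cells and from 0.834 to 0.986 in CD4 T cells. It ran from 0.801 to 0.993 in γδ T cells, from 1.01 to 1.05 in granule-low monocytes and from 1.01 to 1.19 in endothelial cells. In nonclassical monocytes it ran from 1.03 to 1.19 and in CD8 T cells from 1.11 to 1.21. In B cells it ran from 1.02 to 1.13 and in alveolar macrophages from 1.08 to 1.12. The whole-library log2 ratio of 0.28 became 0.32 per UMI of other genes, 0.49 for the median cell, 0.27 in cells of 3000 to 8000 UMIs, 0.29 without the deepest 10% of cells and 0.30 without the 5 most abundant genes. The median over types of 0.15 became 0.17, 0.16, 0.11 and 0.16 under the first 4 of these, 0.14 with a stricter gate, and, with alternatives added after seeing the data, 0.11 with markers counted from 1 UMI and 0.15 in cells without a cycling gene. The 42 gene and type combinations past 1.5-fold became 145 with a lower fold, 4 at 2-fold, 22 in cells without a cycling gene (also added after seeing the data) and 5 with ribosomal protein UMIs as the denominator, of which 3 were higher and 2 lower. A denominator of the ribosomal protein UMIs removes the summed change by construction; for the other shifts beyond the changed fold the cause was not tested.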
